A study of Mus musculus with 10 samples.

Results

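The genes of the proteasome, its activators and its assembly factors were followed in primary mouse embryonic fibroblasts (MEFs), connective tissue cells cultured from the embryo. Of the 52550 genes in the deposited table, 50 carried a name of the form Psma to Psmg followed by a number, after 4 names with -ps had been left out. The cells came from C57BL/6 embryos of day 14 and were at passage 3. There were 5 female and 5 male libraries, made with a directional kit from RNA depleted of ribosomal RNA. No transgene, deletion or drug is named for any library, and both sexes share strain, age and passage. Nothing in the labels ties a library to an embryo or a culture of its own, so the p-values speak only of the spread among these libraries, part of which may be technical.

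The proteasome is the barrel-shaped protease that degrades proteins tagged with ubiquitin. Its core particle is a stack of rings of alpha subunits, which gate the entrance, and beta subunits, some of which hold the proteolytic sites. A regulatory particle, made of a base with a ring of ATPases and a lid, binds tagged proteins, removes the ubiquitin and feeds the chain into the core. In cells exposed to interferon gamma, and in many immune cells, the catalytic subunits are replaced by immune forms that change which peptides are offered on MHC class I. Cultured fibroblasts without interferon are known mainly for the constitutive forms.

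By role, the 50 names held 7 alpha subunits, 7 constitutive beta subunits, 3 immune beta subunits, 9 base subunits, 8 lid subunits, 5 activators, 1 inhibitor and 7 assembly factors. The 3 others were Psma8, the germ cell form of an alpha subunit, Psmb11, the beta subunit of thymic cortical epithelium, and Psmc3ip, a meiotic recombination factor that shares only the start of the name. The 31 constitutive subunits of the core (14) and of the regulatory particle (17) held between 0.293% and 0.315% of all unique gene reads in a library. Libraries held 30662616 to 45859721 unique gene reads. All 11 fibroblast markers examined were present, with Fn1, a matrix glycoprotein, the most abundant by CPM, while lymphocyte markers summed to at most 0.674 CPM (read counts scaled to the library total) in females and 0.597 CPM in males. Endothelial markers summed to 102 to 155 CPM in female libraries and 86.9 to 112 CPM in male libraries. Epithelial markers summed to 61.1 to 87.8 CPM in female libraries and 59.2 to 113 CPM in male libraries. These sums rest mainly on Flt1 and Kdr, and on Krt19. Flt1 averaged 85.4 CPM in females and 58.6 CPM in males, and Kdr 22.0 and 28.2 CPM. Cdh5 averaged 0.732 CPM in females and 0.591 CPM in males, and Pecam1 2.22 and 2.11 CPM. Krt19 averaged 62.7 CPM in females and 78.4 CPM in males. Epcam averaged 0.190 and 0.222 CPM, and Cdh1 0.344 and 0.366 CPM. Xist stood at 17.3 to 25.7 CPM in female libraries and at no more than 0.0579 CPM in male libraries, and Ddx3y at no more than 0.463 CPM in female libraries and at 54.7 to 68.2 CPM in male libraries, so the libraries matched their sex labels.

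Promoters are shown for the catalytic subunits, whose constitutive and immune forms stood at unlike levels in these cells. The windows run from 250 bases before to 50 bases after the start site and come from RefSeq on GRCm38.p6, with 5′ to 3′ read along the gene. Psmb6 (beta1, the caspase-like site) lies at chr11:70525107-70525406, plus strand. Psmb5 (beta5, the chymotrypsin-like site) lies at chr14:54617946-54618245, minus strand. Psmb9, the immune form of beta1, lies at chr17:34187281-34187580, minus strand, a window that also holds the start site of Tap1. Psmb8, the immune form of beta5, lies at chr17:34197945-34198244, plus strand. Psmb10, the immune form of beta2, lies at chr8:105938343-105938642, minus strand. Capitals mark the motif matches described after the sequences.
Psmb6: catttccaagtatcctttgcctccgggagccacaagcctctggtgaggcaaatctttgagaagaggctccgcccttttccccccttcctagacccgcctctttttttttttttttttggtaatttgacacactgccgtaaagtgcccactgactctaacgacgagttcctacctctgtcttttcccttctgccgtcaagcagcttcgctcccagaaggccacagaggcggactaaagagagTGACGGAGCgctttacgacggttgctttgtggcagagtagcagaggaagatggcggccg
Psmb5: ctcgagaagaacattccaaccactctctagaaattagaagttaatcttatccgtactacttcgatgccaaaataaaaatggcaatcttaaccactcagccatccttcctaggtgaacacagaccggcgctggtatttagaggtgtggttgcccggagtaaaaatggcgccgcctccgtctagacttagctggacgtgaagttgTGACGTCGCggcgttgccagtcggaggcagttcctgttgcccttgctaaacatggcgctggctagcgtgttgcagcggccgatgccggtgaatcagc
Psmb9: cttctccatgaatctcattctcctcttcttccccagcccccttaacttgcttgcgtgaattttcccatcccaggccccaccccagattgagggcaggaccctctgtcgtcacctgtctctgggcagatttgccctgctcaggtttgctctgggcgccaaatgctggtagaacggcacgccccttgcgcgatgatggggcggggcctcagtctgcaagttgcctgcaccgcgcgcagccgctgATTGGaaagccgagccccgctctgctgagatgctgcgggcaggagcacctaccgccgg
Psmb8: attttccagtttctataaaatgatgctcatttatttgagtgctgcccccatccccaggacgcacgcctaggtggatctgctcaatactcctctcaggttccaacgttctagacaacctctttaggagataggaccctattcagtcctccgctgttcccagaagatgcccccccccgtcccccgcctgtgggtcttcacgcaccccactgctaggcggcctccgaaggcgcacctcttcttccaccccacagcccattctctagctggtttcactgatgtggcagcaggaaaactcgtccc
Psmb10: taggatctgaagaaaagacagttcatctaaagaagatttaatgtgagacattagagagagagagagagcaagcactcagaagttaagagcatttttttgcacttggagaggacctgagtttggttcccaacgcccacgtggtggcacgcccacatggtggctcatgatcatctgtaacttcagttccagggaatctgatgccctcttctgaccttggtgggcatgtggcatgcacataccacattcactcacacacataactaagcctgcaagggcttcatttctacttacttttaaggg

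Matches are given for 3 short motifs, searched on both strands of these windows. The antioxidant response element core (TGACNNNGC), read by the factors Nfe2l1 and Nfe2l2 that raise proteasome genes under stress, occurred once in the Psmb5 window, 47 bases before the start site, and once in the Psmb6 window, 9 bases before it. The Psmb9 window held the CCAAT box (CCAAT) on the other strand, 8 bases before the start. The Psmb8 and Psmb10 windows held none of these 3 motifs, the third being the interferon-stimulated response element (GAAA, then any 2 bases, then GAAA). None of these patterns contains another. The Psmb8 and Psmb9 windows lie wholly inside the annotated spans of their genes, because the RefSeq start sites used lie downstream of the annotated gene starts. Sequence ahead of those annotated starts was not searched for Psmb8 and Psmb9.

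RefSeq windows were matched for 42 of the 50 genes, giving 45 windows because some genes have more than 1. The antioxidant element was in 13.3% of these windows, against 12.4% of the 32851 windows of all genes. The CCAAT box was in 33.3%, against 37.4% of all windows. The interferon-stimulated element was in 11.1%, in the windows of Psmb3, Psmd4, Psmd9, Psme1 and Psmg4, against 3.44% of all windows. Windows were not at hand for Psma8, Psmb1, Psmb2, Psmb7, Psmc3, Psmd3, Psmd7 and Psmg2. A match is only a run of letters, and binding was not measured.

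Levels between genes were compared per length, as total exon reads per kilobase of the deposited exon length and scaled to the total exon reads of the library (RPKM). Fewer cells of a type and less RNA per cell cannot be told apart in such bulk samples. The 31 constitutive subunits lay within 4.98-fold of each other, between 22.5 RPKM for Psmd13 and 112 RPKM for Psmd8, and 27 of them were within 2-fold of their median of 40.2 RPKM. Their levels differed far more between genes (SD of 0.64 on the log2 scale) than between libraries for a given gene once the mean of each sex was removed (median SD of 0.067, highest 0.093 for Psmc6). Annotated genes on the other strand overlap 19 of the 50, among them Psma3, Psmb8, Psmb9, Psmb10, Psmd14 and Psme1, and whether the counting used strand is not given in the sources used here, so these genes may share reads with their neighbours.

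**Figure D1:**
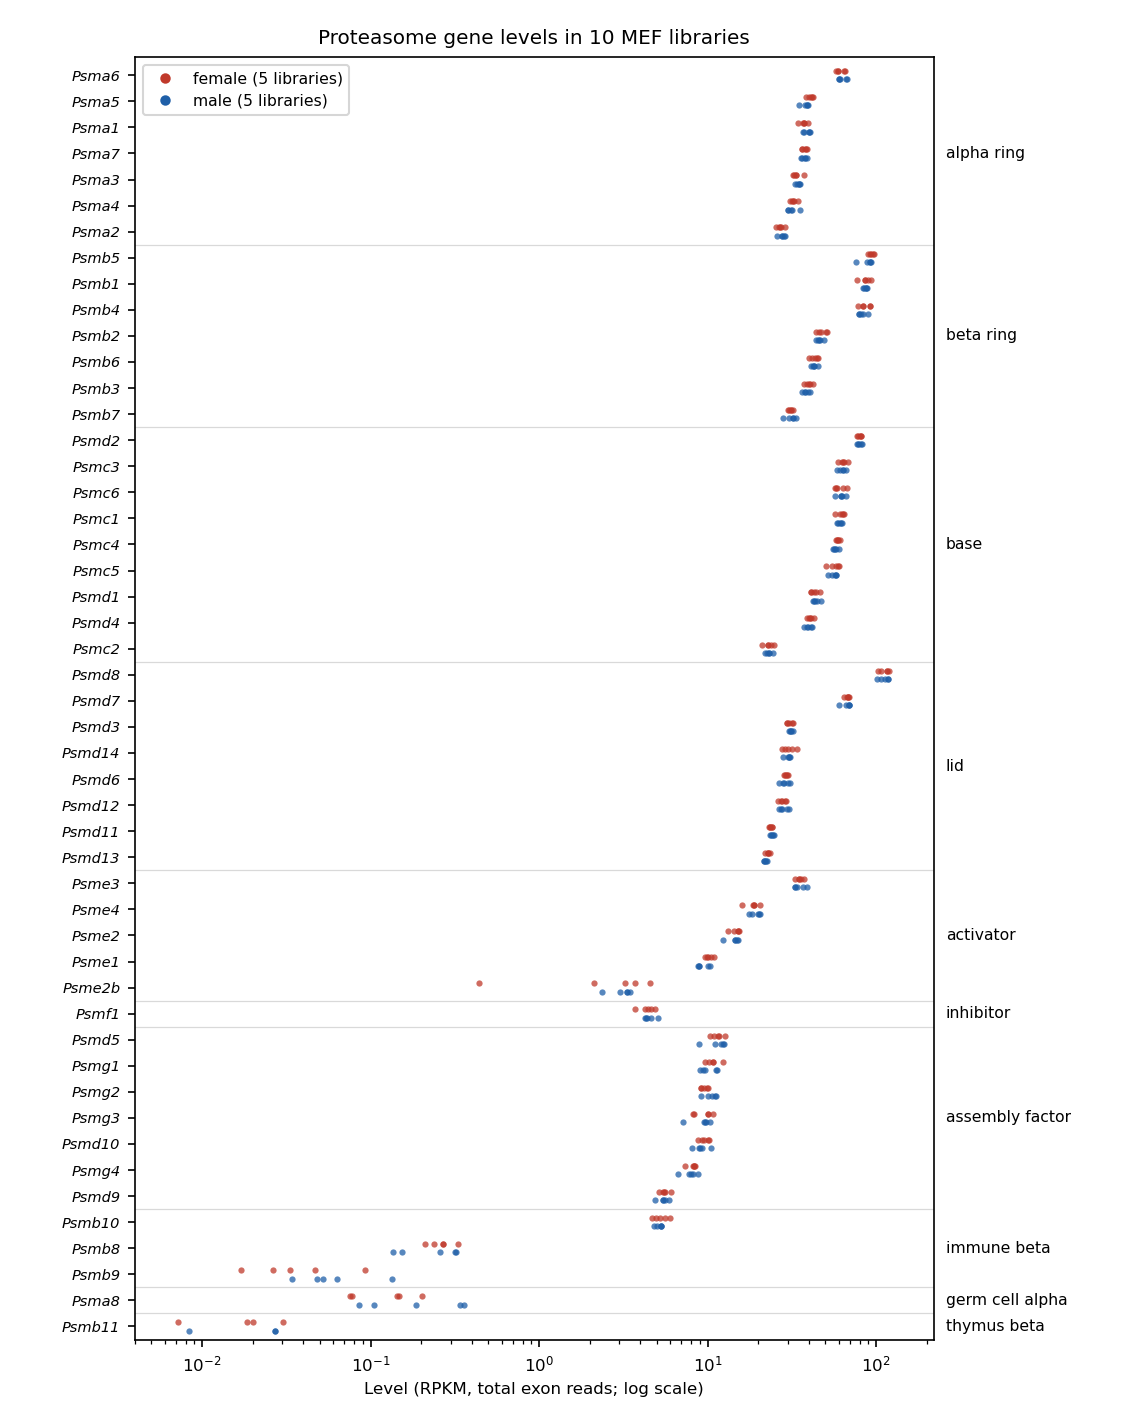
Level of each proteasome gene in every library, in RPKM on a log axis, grouped by role, with female libraries in red above male libraries in blue; Psmc3ip is not drawn, and the libraries with 0 reads of Psmb11 (female 1, male 3 and male 4) cannot be drawn on a log axis. The means of the constitutive subunits over the libraries lie between 22.5 and 112 RPKM, those of the assembly factors between 5.51 and 11.4 RPKM, and Psmb8 and Psmb9 lie below 1 RPKM.

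In the alpha ring, Psma6 (alpha1) was the most abundant, with 65.6, 57.5, 64.8, 59.5 and 59.5 RPKM in the 5 female libraries, against 60.6, 67.6, 61.2, 59.9 and 66.4 RPKM in the 5 male libraries. Psma2 (alpha2) was the least abundant, with 28.8, 26.8, 27.2, 26.7 and 25.4 RPKM in the 5 female libraries, against 26.00, 27.5, 28.5, 27.7 and 28.6 RPKM in the 5 male libraries. The sexes overlapped for both, and no library of Psma2 reached the lowest library of Psma6. The other alpha subunits averaged 39.3 RPKM (Psma5, alpha5), 38.03 RPKM (Psma1, alpha6), 37.4 RPKM (Psma7, alpha4), 34.1 RPKM (Psma3, alpha7) and 32.1 RPKM (Psma4, alpha3). Of the exon reads of Psma3, 12.6% were placed uniquely, and of those of Psma5, 41.6%, so their levels rest on reads that also match elsewhere.

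In the beta ring, Psmb5 was the most abundant by exon length, with 97.3, 93.5, 91.6, 89.5 and 96.2 RPKM in the 5 female libraries, against 76.4, 91.6, 88.1, 93.2 and 92.4 RPKM in the 5 male libraries. Male library 1 was the lowest and lay apart from the other 9. Psmb7 (beta2, the trypsin-like site) was the least abundant by the same measure, with 32.3, 31.4, 30.4, 30.04 and 31.2 RPKM in the 5 female libraries, against 28.2, 30.4, 33.4, 32.2 and 32.1 RPKM in the 5 male libraries. Male library 1 was again the lowest, and the sexes overlapped. Psmb6 was measured at 44.7, 41.9, 40.2, 43.4 and 45.2 RPKM in the 5 female libraries, against 42.1, 42.7, 41.3, 45.3 and 42.8 RPKM in the 5 male libraries. Its libraries lay close together in both sexes. The beta subunits without a proteolytic site averaged 86.1 RPKM for Psmb1 (beta6), 84.3 RPKM for Psmb4 (beta7), 46.9 RPKM for Psmb2 (beta4) and 39.03 RPKM for Psmb3 (beta3). Psmb3 had 44.6% of its exon reads placed uniquely, Psmb5 68.5% and Psmb7 76.1%. With unique exon reads alone, Psmb4 led the ring at 98.1 RPKM, ahead of Psmb1 at 97.9 RPKM and Psmb5 at 72.6 RPKM. Psmb3 was then the lowest, at 20.3 RPKM, below Psmb7 at 27.6 RPKM.

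The base joins 6 ATPases, which unfold the substrate, to the large scaffold subunits Psmd1 and Psmd2 and the ubiquitin receptor Psmd4. Psmd2 was the most abundant, with 79.8, 81.3, 81.7, 76.98 and 77.9 RPKM in the 5 female libraries, against 76.9, 82.2, 79.4, 78.4 and 81.2 RPKM in the 5 male libraries. Psmc2 was the least abundant by exon length, with 24.6, 22.8, 23.8, 22.9 and 21.2 RPKM in the 5 female libraries, against 23.2, 24.6, 23.03, 22.6 and 22.1 RPKM in the 5 male libraries. Both stayed within narrow bounds, with overlap between the sexes. The other ATPases stood by exon length at 63.2 RPKM for Psmc3, 61.4 RPKM for Psmc6, 61.3 RPKM for Psmc1, 58.3 RPKM for Psmc4 and 56.3 RPKM for Psmc5. Psmd1 averaged 43.5 RPKM and Psmd4 40.2 RPKM.

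In the lid, Psmd8 (chr7:29174188-29180701, mm10, minus strand) exceeded every other constitutive subunit, with 119, 117, 107, 103 and 116 RPKM in the 5 female libraries, against 112, 117, 102, 106 and 118 RPKM in the 5 male libraries. Its lowest library was above the highest library of Psmb5, the next gene in the order by this measure. The mean of Psmd8 was 1.23-fold that of Psmb5. With unique exon reads the next gene was Psmb4, at 98.1 RPKM against 130 RPKM for Psmd8. Psmd13 (chr7:140881968-140898643, plus strand) was the least abundant, with 23.5, 22.9, 22.8, 22.98 and 21.9 RPKM in the 5 female libraries, against 21.8, 22.6, 22.3, 21.8 and 21.99 RPKM in the 5 male libraries. Psmd14, the metalloprotease that removes ubiquitin chains, had 33.9, 31.6, 30.02, 28.98 and 27.8 RPKM in the 5 female libraries, against 30.5, 30.3, 29.9, 27.9 and 30.7 RPKM in the 5 male libraries. Female library 1 was the highest for Psmd14, and female library 5 and male library 4 were the lowest. Psmd7, the inactive partner of Psmd14, averaged 67.03 RPKM. The remaining lid subunits averaged 30.9 RPKM (Psmd3), 29.02 RPKM (Psmd6), 28.04 RPKM (Psmd12) and 23.9 RPKM (Psmd11).

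The core stood slightly below the regulatory particle in every library by this measure. The median log2 RPKM of the 14 core subunits minus that of the 17 regulatory subunits was -0.14, -0.11, -0.034, -0.14 and -0.072 in the 5 female libraries, against -0.25, -0.22, -0.12, -0.13 and -0.12 in the 5 male libraries. The sexes overlapped, with means of -0.098 ± 0.045 in females and -0.17 ± 0.063 in males (SD, n = 5 each). The sign depended on the length used: with the median length of the principal coding transcripts in place of the deposited exon length the difference was 0.079 ± 0.045 in females and 0.094 ± 0.052 in males. Within the particles, the base median exceeded the lid median, as a log2 difference, by 0.99 ± 0.017 in females and 0.96 ± 0.044 in males, and with transcript lengths by 0.25 ± 0.048 in females and 0.25 ± 0.064 in males. The alpha ring median was below the beta ring median, by a log2 difference of -0.39 ± 0.093 in females and -0.32 ± 0.10 in males.

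The order of single genes also moved with length. The deposited exon length was between 0.589 and 3.36 times the transcript length, highest for Psma7. Psmd8 kept the first place, at 1.78-fold the next gene, but Psma7 stood second by transcript length and 20th by exon length, and Psmb1 stood 25th by transcript length and 3rd by exon length. In the beta ring, Psmb3 led by transcript length, at 117 RPKM, followed by Psmb6 at 101 RPKM, Psmb4 at 98.6 RPKM, Psmb7 at 91.9 RPKM and Psmb5 at 88.1 RPKM, so the order of Psmb5 and Psmb7 turned. The ATPases ran from 42.98 RPKM for Psmc6, then the lowest of the base, through 65.05 RPKM for Psmc2 to 101 RPKM for Psmc3.

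Among the activators, which open the core without ubiquitin or ATP, Psme3, the nuclear form, was the most abundant, with 34.9, 33.1, 35.01, 35.95 and 37.2 RPKM in the 5 female libraries, against 33.1, 34.04, 37.00, 33.2 and 38.7 RPKM in the 5 male libraries. Psme4, the large single-chain activator, had 20.5, 18.6, 18.98, 18.99 and 16.1 RPKM in the 5 female libraries, against 20.6, 20.03, 20.3, 18.3 and 17.7 RPKM in the 5 male libraries. Female library 5 and male library 5 were the lowest for Psme4. The pair Psme1 and Psme2, which form a mixed ring and rise with interferon gamma in other settings, was lower. Psme1 had 10.9, 10.1, 10.5, 9.63 and 9.86 RPKM in the 5 female libraries, against 10.1, 8.73, 8.92, 10.4 and 8.93 RPKM in the 5 male libraries. Psme2 had 14.4, 15.3, 15.5, 15.1 and 13.1 RPKM in the 5 female libraries, against 14.6, 14.6, 14.9, 15.2 and 12.4 RPKM in the 5 male libraries. Male library 5 was the lowest for Psme2, and the sexes overlapped for both genes. Psme2b, a close copy of Psme2, had 4.52, 3.22, 3.72, 2.11 and 0.438 RPKM in the 5 female libraries, against 3.34, 3.33, 2.37, 3.44 and 3.03 RPKM in the 5 male libraries. Female library 5 was far below the others, and none of the Psme2b exon reads was placed uniquely, as against 42.4% of those of Psme2, so how these reads split between the copies is uncertain.

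The 7 assembly factors, chaperones that leave the finished particle, were all below every constitutive subunit, with a median of 9.40 RPKM. Psmd5, a chaperone of the base, was the most abundant, with 12.7, 10.9, 11.8, 11.5 and 10.4 RPKM in the 5 female libraries, against 12.3, 12.5, 8.86, 11.1 and 11.97 RPKM in the 5 male libraries. Psmd9, also a base chaperone, was the least abundant, with 5.41, 5.62, 6.08, 5.13 and 5.52 RPKM in the 5 female libraries, against 4.91, 5.93, 5.57, 5.44 and 5.46 RPKM in the 5 male libraries. Male library 3 was the lowest for Psmd5, and the sexes overlapped for both. Psmd10, a further base chaperone, averaged 9.36 RPKM. The alpha ring chaperones averaged 10.5 RPKM (Psmg1), 9.99 RPKM (Psmg2), 9.397 RPKM (Psmg3) and 8.001 RPKM (Psmg4). Psmf1, a protein that inhibits the core in vitro, averaged 4.45 RPKM.

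The immune subunits were far below their constitutive counterparts, and unequally so. Psmb9 (chr17:34181987-34187764, minus strand) had 0.0171, 0.0466, 0.0931, 0.0263 and 0.0334 RPKM in the 5 female libraries, against 0.0483, 0.0629, 0.0521, 0.0342 and 0.134 RPKM in the 5 male libraries. Male library 5 was the highest, and these values rest on 2 to 17 total exon reads per library. Psmb8 (chr17:34197721-34201454, plus strand) had 0.332, 0.239, 0.211, 0.2702 and 0.268 RPKM in the 5 female libraries, against 0.259, 0.137, 0.153, 0.3205 and 0.316 RPKM in the 5 male libraries. Male libraries 2 and 3 were the lowest, with 13 and 11 exon reads. Psmb10 (chr8:105935735-105938444, minus strand) had 5.25, 4.96, 5.98, 5.56 and 4.68 RPKM in the 5 female libraries, against 5.02, 5.31, 5.32, 5.33 and 4.797 RPKM in the 5 male libraries. Its SD over the libraries was 7.27% of its mean, and it rests on 238 to 389 exon reads in each, of which 47.3% were placed uniquely. The annotated Psmb10 gene overlaps Gm16156 on the other strand and may share reads with it.

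As a share of the summed level of each catalytic pair, Psmb9 made up 0.103% ± 0.076 of the beta1 site in females and 0.155% ± 0.091 in males (SD, n = 5 each). Psmb8 made up 0.281% ± 0.042 of the beta5 site in females and 0.269% ± 0.098 in males. Psmb10 made up 14.5% ± 1.4 of the beta2 site in females and 14.2% ± 0.86 in males. Psmb10 therefore held a share above those of Psmb8 and Psmb9 in each of the 10 libraries. The size of its share moved with the measure, to 9.45% over all libraries with unique exon reads and to 6.89% with transcript lengths. The Psmb8 share was 0.475% over all libraries with transcript lengths.

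**Figure D2:**
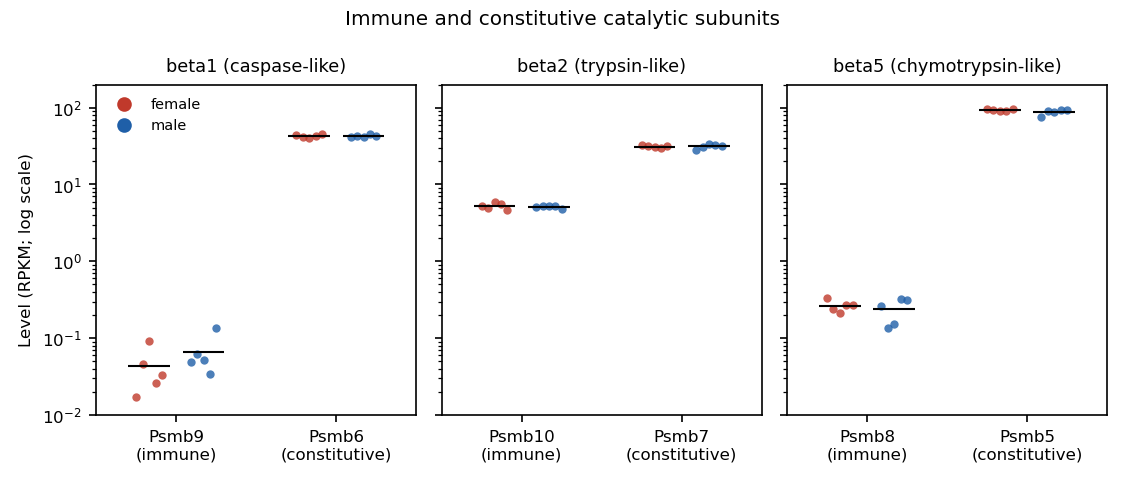
Level of the immune and the constitutive subunit of each catalytic site in every library, in RPKM on a log axis; points are libraries, female in red left of male in blue, and bars are means of 5 libraries. Psmb10 lies near 5 RPKM in both sexes, while Psmb8 and Psmb9 stay below 0.4 RPKM.

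Genes that act with the immune subunits were expressed at unlike levels. B2m, the light chain of MHC class I, had 197 ± 15 RPKM in females and 217 ± 12 RPKM in males. Tap1, a peptide transporter that shares a promoter region with Psmb9 and reads away from it with start sites 226 bases apart, had 1.90 ± 0.20 RPKM in females and 1.95 ± 0.20 RPKM in males, while Psmb9 averaged 0.0433 ± 0.030 RPKM in females and 0.0663 ± 0.039 RPKM in males (SD, n = 5 each). The annotated Psmb9 gene overlaps Tap1 on the other strand. Irf1, a factor that drives the immune subunits, averaged 2.59 RPKM. Of the 10 genes of the immune and MHC class I list, 10 were tested and 0 were called between the sexes in edgeR, with 1 (H2-D1) at an unadjusted p under 0.05 and a median log2 fold change of -0.025. Macrophage markers, which could accompany immune subunits, summed to 46.4 to 112 CPM in female libraries and 56.1 to 82.99 CPM in male libraries. Of the 12 listed, 11 were among the deposited genes, with Itgam absent. On average 10 were at or above 1 CPM, and Aif1 was below 0.1 CPM. All 10 macrophage markers tested had a positive log2 fold change (median of 0.19), and 0 were called in edgeR, with 2 at an unadjusted p under 0.05. Over all 16602 genes, 8650 were positive, 0.0904% were called and 5.55% had an unadjusted p under 0.05. The part of the macrophage markers in the immune subunit levels was not tested.

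Tissue forms were near the limit of detection. Psmb11 had 0, 3, 3, 4 and 1 exon reads in the 5 female libraries, against 1, 4, 0, 0 and 4 in the 5 male libraries, and a count of 0 allows up to 3 reads. Such a limit covers counting error only. Psma8 had 8, 12, 5, 4 and 8 exon reads in the 5 female libraries, against 5, 5, 16, 10 and 20 in the 5 male libraries. Psmc3ip had 62 to 139 exon reads in a library.

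The study compared female with male MEFs. No proteasome gene was called different between the sexes. Of the 47 tested, 0 were called at an adjusted p under 0.05 (edgeR quasi-likelihood test, Benjamini-Hochberg over 16602 genes), where 15 of all genes, or 0.0904%, were called. At an unadjusted p under 0.05 the count was 1 gene, Psma8, against 921 of all genes (5.55%), and DESeq2 also called 0 with 1 at the unadjusted level. The female and male libraries were free of overlap for 0 of the 47, against 0.976% of all genes. The authors' deposited table gave a false discovery rate of 1.0 for every proteasome gene, and a rate under 0.05 for 82 genes in all. Psmb9 and Psmb11 were too low for the test, with 72 and 18 unique gene reads over all libraries. Psme2b had 810 total exon reads but 0 unique gene reads, and so was not tested.

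**Figure D3:**
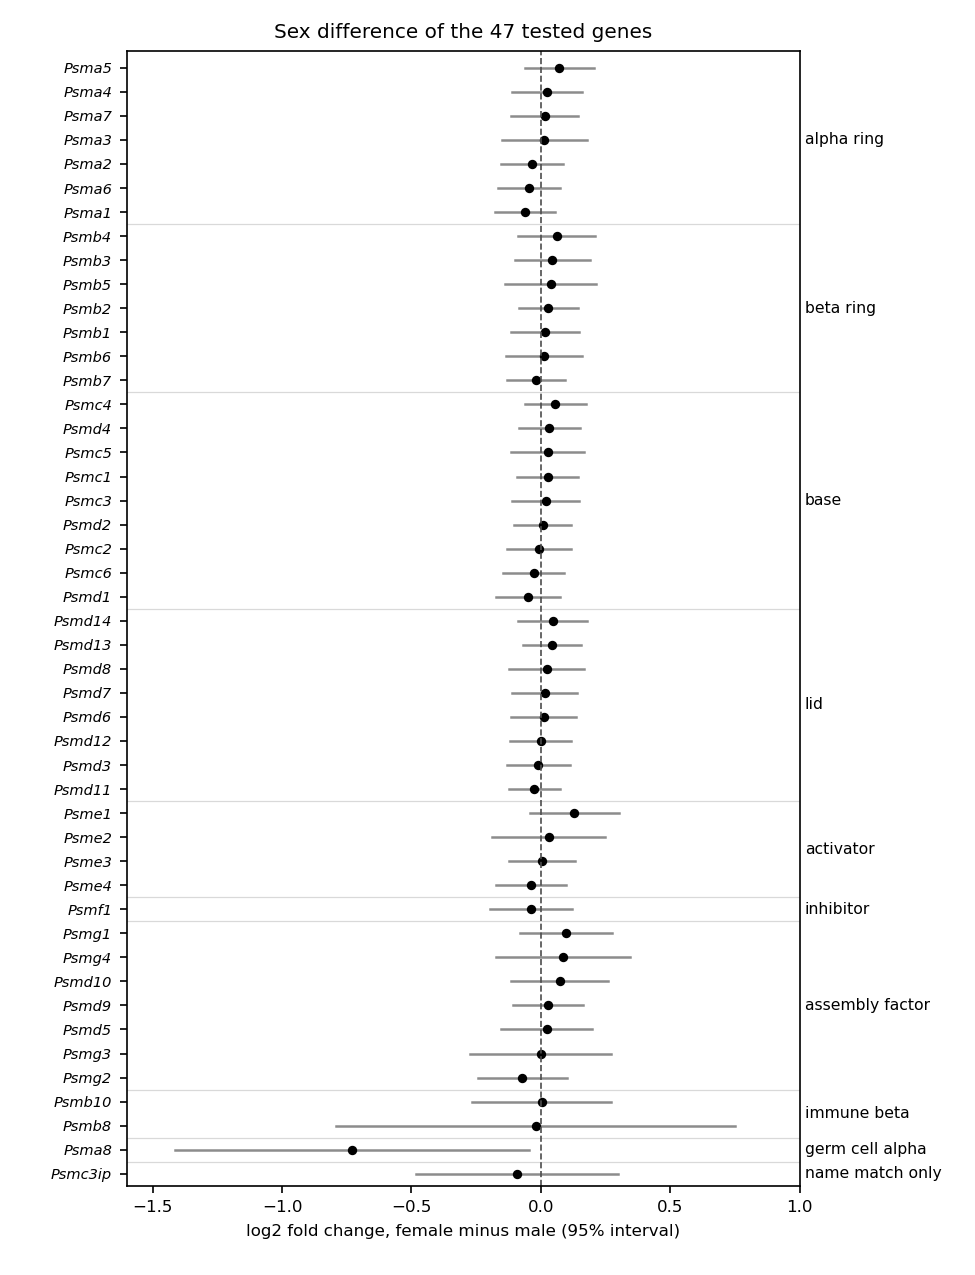
Log2 fold change (female minus male) of the 47 tested genes with 95% intervals from the edgeR fit, grouped by role. The constitutive subunits lie between -0.062 and 0.071, Psma8 lies lowest at -0.73 with a wide interval, and Psmb8 has the widest interval.

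For the 31 constitutive subunits the fold changes were small and their errors bound them tightly. They ran from -0.062 ± 0.055 for Psma1 to 0.071 ± 0.062 for Psma5 (log2 fold change ± SE, female minus male), with 21 positive and 10 negative. The highest upper 95% bound was 0.22 for Psmb5. The median log2 fold change of the tested proteasome genes was 0.015, against 0.0048 for all tested genes. The log2 fold change was 0.047 ± 0.062 for Psmd14 and 0.012 ± 0.068 for Psmb6. Psmd10, the only proteasome gene here on the X chromosome, had 0.074 ± 0.088 (adjusted p of 0.999, edgeR). The immune subunits were less well bounded, with -0.019 ± 0.36 for Psmb8 and 0.0046 ± 0.13 for Psmb10, and an interval of -0.79 to 0.75 for Psmb8.

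None of the genes nearest to a difference passed the test. Higher in females, the smallest p belonged to Psme1, at 20.5, 20.03, 18.5, 18.4 and 18.6 CPM in the 5 female libraries, against 17.7, 16.5, 16.3, 20.9 and 16.5 CPM in the 5 male libraries. All 5 female libraries were above 4 of the 5 male libraries, and male library 4 was above all of them. The log2 fold change of Psme1 was 0.13 ± 0.080, with an adjusted p of 0.987. With 1 library left out it ran from 0.10 to 0.20, the highest without male library 4 (adjusted p of 0.592 in edgeR). Psmg1 had 10.8, 9.68, 12.4, 10.8 and 10.2 RPKM in the 5 female libraries, against 9.05, 9.41, 9.67, 11.4 and 11.2 RPKM in the 5 male libraries. Psma5 had 42.5, 40.95, 41.6, 38.3 and 39.96 RPKM in the 5 female libraries, against 34.7, 39.1, 39.6, 39.02 and 37.7 RPKM in the 5 male libraries. Psmc4 had 60.8, 58.6, 59.3, 58.2 and 59.5 RPKM in the 5 female libraries, against 55.2, 60.1, 56.8, 56.2 and 57.9 RPKM in the 5 male libraries. In all 3 genes the sexes overlapped, and the adjusted p was 0.999 for each in edgeR's quasi-likelihood test. That test used unique gene reads, while the RPKM values of these genes count total exon reads.

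Lower in females, the smallest p belonged to Psma8, at 0.325, 0.565, 0.358, 0.169 and 0.5504 CPM in the 5 female libraries, against 0.455, 0.502, 0.833, 0.637 and 0.859 CPM in the 5 male libraries. The highest female libraries lay above the lowest male libraries. Its log2 fold change was -0.73 ± 0.32, with an unadjusted p of 0.0381 and an adjusted p of 0.864 in the edgeR quasi-likelihood fit. Of the 197 unique gene reads of Psma8 over all libraries, 104 lay in introns, and in unique exon reads it was too low for the test. Psma1 had 39.3, 34.6, 37.3, 37.6 and 36.8 RPKM in the 5 female libraries, against 37.2, 40.3, 40.5, 36.7 and 40.01 RPKM in the 5 male libraries. Psmg2 had 9.16, 9.198, 9.92, 9.53 and 10.1 RPKM in the 5 female libraries, against 11.2, 9.096, 10.7, 10.1 and 11.1 RPKM in the 5 male libraries. For both genes, and for Psma6 given with the alpha ring, the sexes overlapped. The adjusted p was 0.999 for each in the same quasi-likelihood test, which used unique gene reads and not the total exon reads behind RPKM.

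Intron reads were scarce in most constitutive subunits. Over the libraries, the median constitutive subunit had 5.88% of its unique gene reads in introns, against a median of 23.1% over all tested genes. Psmd14 was an exception, with 34.8, 31.7, 46.2, 36.4 and 37.04% in the 5 female libraries, against 44.9, 34.1, 38.9, 30.3 and 34.6% in the 5 male libraries. Female library 3 and male library 1 were the highest. Psma5 had 26.4% on average, Psmb2 23.97% and Psmb7 20.1%. Psma3 showed 43.4% of unique reads in introns, but as a share of its total reads the same intron reads made up 8.80%, since few of its exon reads are unique. For Psma5 the share of total reads was 13.04%. Psma3 also overlaps 3110056K07Rik on the other strand.

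The constitutive subunits moved together from library to library. After removing the mean of each sex from log2 CPM (TMM scaling, prior count of 2), the median Pearson r over their 465 pairs was 0.56, with 88.6% of pairs positive, where the median over all pairs of tested genes was 0.00. The regulatory particle had a median r of 0.62, the core 0.49, and pairs of a core with a regulatory subunit 0.54. The values are a description over 10 libraries, and the genes share libraries, depth and scaling.

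**Figure D4:**
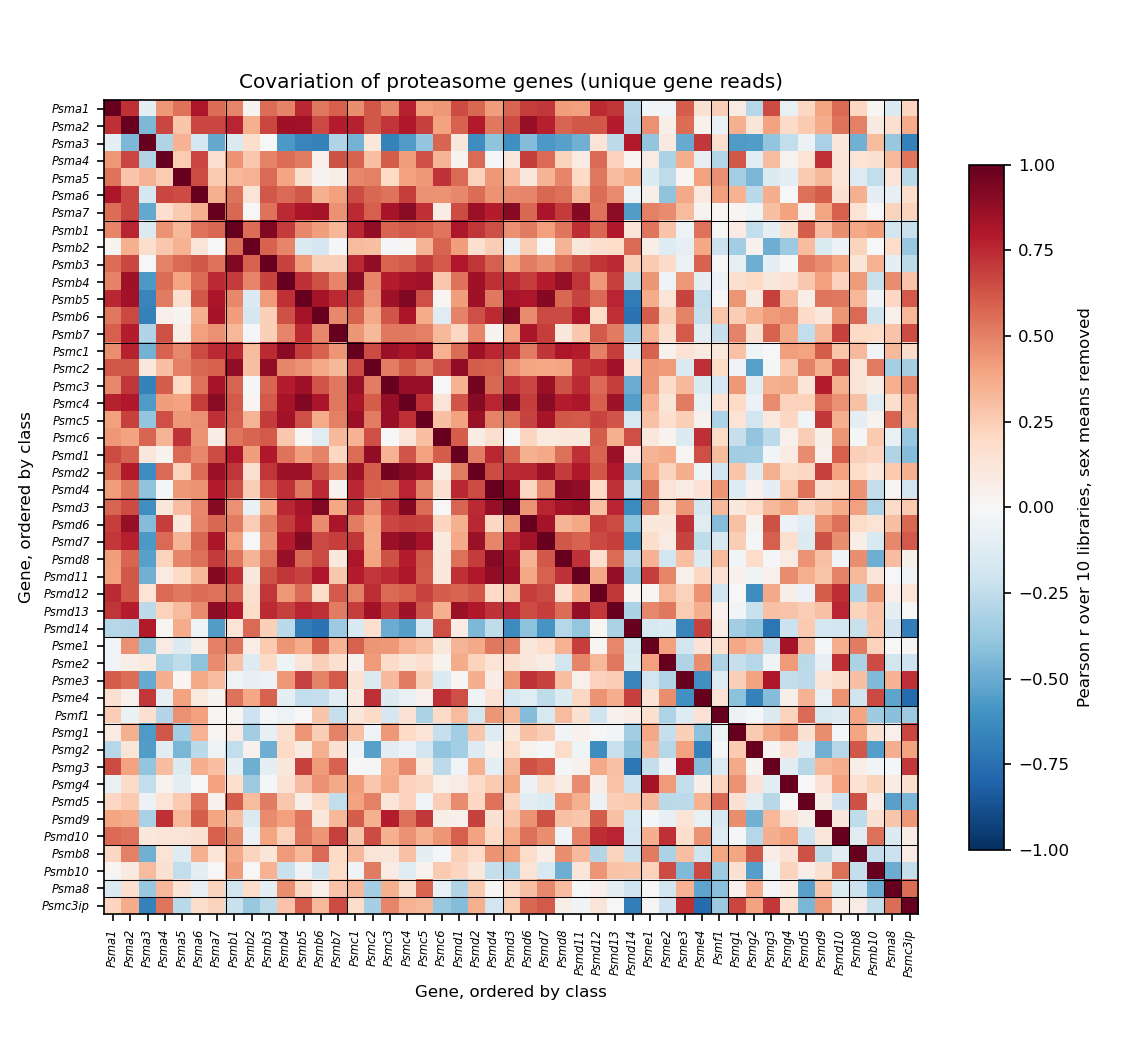
Pearson r between the 47 tested genes, in unique gene reads, over 10 libraries after the mean of each sex was removed, ordered by role, from blue (-1) to red (1). The block of core, base and lid genes is mostly red, with Psma3 and Psmd14 as blue stripes, and the activators and assembly factors are paler.

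Of the 31 subunits, 24 had a median r over 0.5 with the other constitutive subunits, and Psmc4, a base ATPase, had the highest at 0.75. Psmc1, Psmd2, Psmd13 and Psmb4 had 0.69, 0.70, 0.70 and 0.69. Psma3 had -0.40 and Psmd14 had -0.28, the only constitutive subunits below 0, and these are the genes with the highest shares of intron reads among unique reads. With total exon reads, all 31 were positive, with 0.34 for Psma3 and 0.45 for Psmd14, but 5 were over 0.5 and Psmb6 stood at 0.10, against 0.51 in unique gene reads.

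Other proteasome genes followed the constitutive subunits less closely. The median r with them was 0.20 for the assembly factors, 0.18 for the activators and 0.14 for the immune subunits. With total exon reads these were 0.023, 0.011 and -0.022, while pairs of constitutive subunits had 0.39. Among other genes of the pathway, Pomp, the maturation factor of the core, had a median r of 0.66, and Uba1, the main ubiquitin-activating enzyme, had 0.62. Adrm1, a ubiquitin receptor of the base, had 0.43, while Akirin2, which carries proteasomes into the nucleus, and Ngly1, which removes sugars from Nfe2l1, had -0.43 each. With total exon reads, Pomp had 0.46, Uba1 0.17, Adrm1 0.45, Akirin2 -0.57 and Ngly1 0.21, so the sign for Ngly1 turned. The difference between these groups was not tested.

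The common movement differed in size between the libraries. The median deviation of the constitutive subunits from the mean of their sex was 0.063, 0.054, -0.046, -0.020 and -0.037 on the log2 scale in female libraries 1 to 5, and -0.11, 0.069, -0.025, 0.064 and 0.0055 in male libraries 1 to 5. In male library 1, 28 of the 31 subunits were below their mean, and in female library 1, 30 of 31 were above it. Without male library 1 the median r of the constitutive pairs was 0.47, the lowest of the values with a library left out, and the highest was 0.59. Female library 3 and male library 1 also had the highest shares of intron reads over all genes, 28.6% and 28.1%, and the highest TMM factors, 1.037 and 1.036, while male library 4 had the lowest share, 22.5%. In total exon reads, the deviation of male library 1 was -0.054 and that of male library 4 was -0.0023. The part of intron content and scaling in this movement was not tested. Without any scaling factor the deviation was -0.0049 in female library 2 and 0.016 in female library 3, so both signs turned, -0.070 in male library 1 and 0.019 in male library 4. The median r was then 0.33 for constitutive pairs and 0.035 for all genes.

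**Figure D5:**
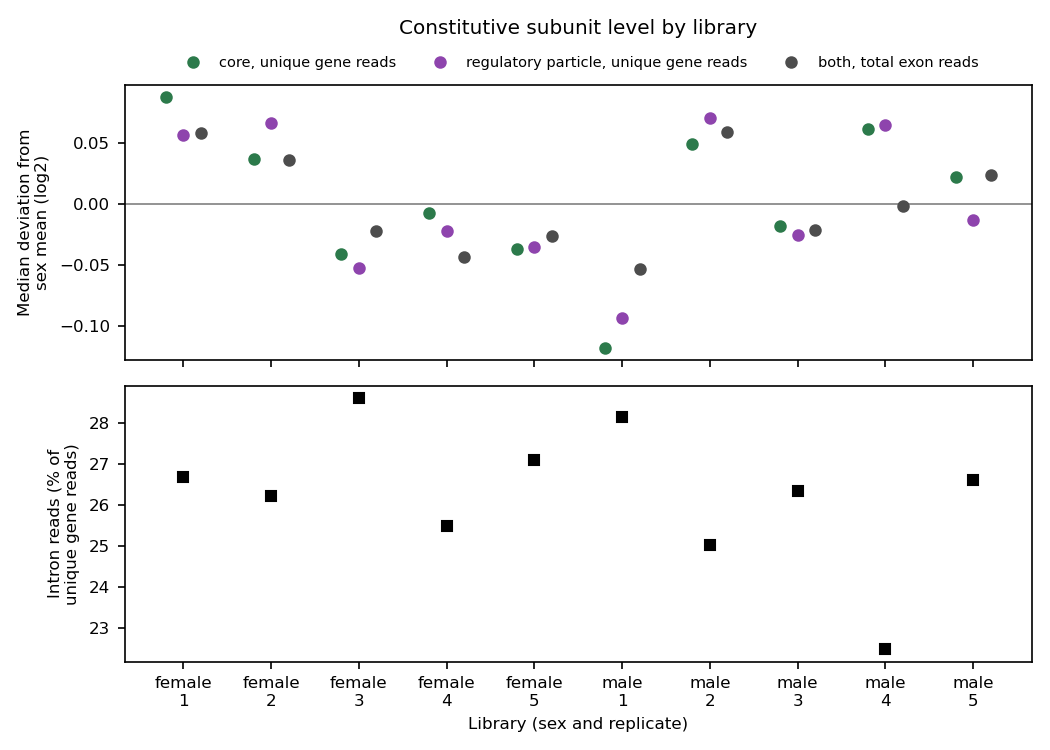
Top, median deviation of the core, the regulatory particle (unique gene reads) and both (total exon reads) from the mean of their sex in each library, on the log2 scale; bottom, percent of unique gene reads in introns over all genes. Core and regulatory particle lie together in most libraries, lowest in male library 1, and male library 4 is above 0 in unique gene reads and at -0.0023 in exon reads.

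Single pairs of genes chosen by function were correlated over the 10 libraries with the sex means left in, unlike the pairwise values above. Of 6 pairs computed, Psmd1 with Psmc1, neighbours in the base, had the highest Pearson r, 0.47 (permutation p of 0.177, Spearman rho 0.59 with permutation p of 0.0809). Psme1 with Psme2, the partners of a ring, had r of 0.41 and rho of 0.20. Psmb8 with Irf1 had r of 0.35 and rho of 0.24, Psmb5 with Psmb8 had r of 0.34 and rho of 0.37, and Psma1 with Psmc1 had r of 0.34 and rho of 0.45. Psmb8 with Psmb10 had r of -0.24 and rho of -0.41. None passed after Benjamini-Hochberg adjustment, where the lowest permutation p was 0.414 for r and 0.447 for rho. Without the 2 libraries farthest from the median of the first gene, r was 0.67 for Psmd1 with Psmc1, 0.53 for Psme1 with Psme2 and 0.61 for Psmb5 with Psmb8, and it was 0.15 for Psmb8 with Irf1, 0.045 for Psma1 with Psmc1 and 0.046 for Psmb8 with Psmb10, so the last 3 rest on those libraries. Within females and within males, each of 5 libraries, r for Psmd1 with Psmc1 was 0.60 and 0.56. With the mean of each sex removed, as for the constitutive pairs above, r was 0.56 for Psmd1 with Psmc1. It was then 0.46 for Psma1 with Psmc1, and -0.24 to 0.41 for the other pairs. Psmb8 had 6 to 30 unique gene reads in a library, so the pairs that hold it rest on few reads.

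Further genes of the pathway were not called between the sexes either. Of 35 names listed, 32 were among the deposited genes, and all 32 were tested. In edgeR 0 were called and 0 had an unadjusted p under 0.05, against 0.0904% and 5.55% of all genes. Their median log2 fold change was -0.0049. Nfe2l1, the factor that raises proteasome genes when activity falls short, had 59.4 ± 7.2 RPKM in females and 60.2 ± 4.9 RPKM in males. Pomp had 12.5 ± 0.89 RPKM in females and 12.4 ± 0.45 RPKM in males. Ube3c, a ligase bound to the proteasome, had the largest log2 fold change of the list, 0.15 ± 0.071, with an adjusted p of 0.902 in edgeR.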

How the data were processed

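RNA was measured in 5 female and 5 male MEF libraries, grouped by the sex in the labels, with replicate numbers from the titles. The authors deposited whole-number read counts per gene and library, not normalized, which the file headers separate into unique and total gene, exon and intron reads. The submitters' processing notes name mm10 as the build. What aligned and counted the reads, and whether by strand, is not given in the sources used here. Their p-value and false discovery rate, which the authors deposited, come per the file headers from their own EDGE test of males against females. Of the other columns, 100 hold values of single libraries and were left aside.

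The genes were found by name, and the genes and lists were chosen with earlier results of these data known. Every gene is named with its role. Values in every library are given for the 6 catalytic subunits, Psme1 to Psme4, Psmd14, the most and least abundant gene of each class and the 4 genes with the smallest p in each direction. Sexes were compared by edgeR's quasi-likelihood test (version 4.0.16, R 4.3.3; robust, TMM, filterByExpr with a minimum count of 10) on unique gene reads, with Benjamini-Hochberg adjustment over 16602 genes at 0.05. The fit was tested on simulated data. DESeq2 (1.42.0) was an alternative. Levels are total exon reads per kilobase of deposited exon length, scaled to the library total (RPKM). Per-library correlations used log2 CPM, and permutation tests drew 100000 resamples in scipy 1.17.1. Starts in the table count from 0 and were converted. Of the genes, 43 of 50 had the same span in GENCODE release M21, whose principal transcripts gave the alternative lengths. A motif that was also searched is not reported here.

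Libraries held 30662616 to 45859721 unique gene reads. Female and male libraries with the same number had correlations of 0.08, 0.07, 0.14, 0.04 and 0.24 in their deviations from the sex means, so the numbers were not taken as pairs. No libraries of a sex agreed within sampling noise (lowest median chi-square 2.35, where sampling gives 0.45).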

Additional observations from a re-analysis of the deposited data

Results flagged for a closer look

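In groups of 5 libraries, 3 of the 68 groups of RPKM values examined had 1 library whose gap to its nearest neighbour took up more than 0.71 of the group's range, and chance gives about 3.4. All 3 were male libraries. Psmb9 stood at 0.134 RPKM in male library 5, against 0.0342 to 0.0629 RPKM in the other males. Psme2 stood at 12.4 RPKM in male library 5, against 14.6 to 15.2 RPKM in the other males. Psmd14 stood at 27.9 RPKM in male library 4, against 29.9 to 30.7 RPKM in the other males.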

How the results depend on the processing

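The count of proteasome genes called stayed at 0 under every alternative run (2 other normalizations, 2 other low-count filters, DESeq2, total gene reads, unique exon reads, a replicate block and leaving out each library). The count over all genes was 30 with no low-count filter, 72 with DESeq2, 43 with the replicate block and 12 to 36 with 1 library left out, 36 without male library 1. The block changed no call of a proteasome gene, and 3 of 5 female libraries correlated best with the male library of their number. Leaving out a library moved the median log2 fold change of the proteasome genes between -0.015 and 0.032.

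Fold changes near 0 changed sign. Psmb10 was at -0.00062 with upper quartile factors, -0.0024 with the replicate block and -0.043 to 0.075 with 1 library left out. Psme3 was at -0.00012 with upper quartile factors and -0.031 to 0.040 with 1 library left out. Psmb8 was at 0.11 with total gene reads, 0.021 with unique exon reads, 0.051 with the block and -0.20 to 0.20 with 1 library left out. Leaving out 1 library also gave -0.040 to 0.071 for Psme2, -0.070 to 0.0092 for Psme4 and -0.030 to 0.093 for Psmb5.

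With lengths of principal transcripts, chosen after seeing the data, the core minus regulatory difference was 0.086 over all libraries, the Psmb10 share 6.89%, the Psmb8 share 0.475% and the fold of the highest over the lowest constitutive subunit 6.51. With unique exon reads the Psmb10 share was 9.45% and that fold 26.1, with Psma3, of which few reads are unique, the lowest. The median r over all pairs of tested proteasome genes was 0.32, and it was 0.17 without a scaling factor, 0.19 with total exon reads (both chosen after seeing the data) and 0.23 to 0.35 with 1 library left out. The correlation of Psmb8 with Psmb10 was 0.046 without 2 libraries. The cause of these shifts was not tested. Depth limits Psma8, whose interval reached -1.41 on the log2 scale, and Psmb9 and Psmb11, which were too low to test.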
